A study of Mus musculus with 6 samples.

Results

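The cytosolic ribosome of mouse cells carries proteins encoded by the Rpl genes (large, 60S subunit) and the Rps genes (small, 40S subunit), and the expression of those genes was examined after silencing of the circular RNA circCpsf6. Members were the protein-coding genes whose symbol is Rpl or Rps followed by a number with at most 1 further letter and at most a final 1, together with Rplp0, Rplp1, Rplp2 and Rpsa. This gave 83 of the 55385 genes in the deposited table, 51 of the large and 32 of the small subunit. The symbol rule used no measured value. Mouse Neuro2A cells, an established neuroblastoma line labelled as neuroblasts, received an siRNA against circCpsf6 (si-circCpsf6, n = 3) or the comparison siRNA si-NC (n = 3), each at 100 nM with a lipid transfection reagent. The labels give neither a time after transfection nor a statement that replicates came from separate cultures, and p-values then reflect only how far these libraries differed, which can be technical. CircCpsf6 is named for its host gene Cpsf6, and values are per gene, so the circular RNA and its silencing were not analysed here.

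Each ribosome holds one copy of nearly every ribosomal protein, and cells make the proteins of both subunits in matched amounts, with unassembled protein degraded. Most of the mRNAs start with a terminal oligopyrimidine (TOP) tract, a run of C and T bases at the 5′ end through which their translation follows growth signals from mTOR, and the RNA-binding protein LARP1 binds this tract. Mammalian genomes also hold many processed pseudogenes of these genes, which are near-identical in sequence, and how reads were divided between a gene and its copies affects the values below.

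Runs of C and T bases lie near the annotated start of many of these genes. RefSeq promoter windows of build GRCm38.p6 were found for 63 of the 83 genes, and a window from 30 bases before to 50 bases from the annotated start was searched for a run of at least 8 bases that were each C or T. Such a run on the gene's strand was present in 49 of the 63 genes (77.8%), against 30.1% of 8590 tested protein-coding genes. On the opposite strand a run was present in 15.9% of the 63 genes, against 33.2%. Below are the 30 bases around the longest run in 8 genes, 5′ to 3′, with the run in capitals: Rps15, the gene with the highest level; Rps6, Rpl14 and Rps13, which had the lowest p-values among the core genes; Rpl11, of the 5S particle; and Rpl22l1, Rps27l and Rpl7l1, which are diverged paralogues of Rpl22, Rps27 and Rpl7.
Rps15 (chr10:80292446-80292475, plus strand): gcagcccgtaCTTCCTTTTCCgagtaaccg
Rps6 (chr4:86857349-86857378, minus strand): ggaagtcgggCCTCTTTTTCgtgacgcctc
Rpl14 (chr9:120571501-120571530, plus strand): agggcgggCCCTCTCTCTTCTCgctgagcg
Rpl11 (chr4:136053358-136053387, minus strand): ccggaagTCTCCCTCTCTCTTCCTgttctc
Rpl22l1 (chr3:28805499-28805528, plus strand): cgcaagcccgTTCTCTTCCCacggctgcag
Rps27l (chr9:66946056-66946085, plus strand): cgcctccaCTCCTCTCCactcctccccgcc
Rps13 (chr7:116334161-116334190, minus strand): tgagtggcgtcaCTTCCTgtgcggcttgat
Rpl7l1 (chr17:46782657-46782686, minus strand): TCTCTaccccgcccggtgaggctgcgcaag
Counted from the annotated start base as 0, the run began at -1 in Rps6 and 1 in Rpl22l1, at 13 in Rpl11 and 25 in Rps15, and before the start, at -8 and -22, in Rpl14 and Rps27l. In Rps27l another run of 9 bases, left in lower case, follows the marked run of 9, which is the earlier of the 2. In these windows Rpl11 had the longest run of the 8, with 17 bases, and Rps13 and Rpl7l1 had none of 8 or more, their longest being 6 and 5 bases. Mitochondrial ribosomal proteins build a separate ribosome inside mitochondria. Of 69 of their genes with a window, 30.4% had a run on the gene's strand and 15.9% on the opposite strand. The low share on the opposite strand was thus not particular to the cytosolic genes. A run is a description of the letters around an annotated start, which may lie away from the start used in these cells.

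The deposited unit was FPKM, which adjusts fragments for transcript length and library size, so levels can be compared between genes while each value is relative to its own library. In all, 12671 to 13080 genes reached 1 FPKM in a library. Read counts were not recovered from the values, and depth is therefore unknown. Of 12 markers of sympathoadrenal neuroblasts, 11 had a mean of at least 1 FPKM, and Nefl was below it. Their summed level was 883 to 1093 FPKM with si-NC and 718 to 767 FPKM with si-circCpsf6, with no overlap, and the part of this in the results below was not tested. Of 19 markers of fibroblasts, blood cells, endothelium, epithelium and glia, 3 reached that mean, Aqp4 was listed at 0 in all libraries, and no list summed to more than 7.42 FPKM in a library. Among the libraries, si-circCpsf6 replicates 1 and 2 stood apart in these genes, and results are given with and without them where they decide a value. Whether fewer cells or less RNA per cell lies behind a lower value cannot be told apart in bulk samples. Cpsf6 had 14.6 ± 0.56 FPKM with si-NC and 13.4 ± 2.4 FPKM with si-circCpsf6 (SD, n = 3 each; limma adjusted p = 0.688).

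The summed level of ribosomal protein mRNA differed less between the groups than between libraries of a group. The genes summed to 25710, 22340 and 22650 FPKM in si-NC replicates 1 to 3 and 29170, 19460 and 21800 FPKM with si-circCpsf6 replicates 1 to 3. The means were 23570 ± 1863 and 23480 ± 5067 FPKM (SD, n = 3 each), and both the highest and the lowest library were si-circCpsf6. As a share of all protein-coding FPKM, the sums were 9.99%, 8.41% and 8.43% in si-NC and 11.2%, 7.54% and 8.69% in si-circCpsf6. Mitochondrially encoded genes took 19.9% to 27.3% of protein-coding FPKM with si-NC and 21.6% to 23.5% in si-circCpsf6.

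The large and the small subunit moved together from library to library. Large subunit genes summed to 15760, 13510 and 13630 FPKM with si-NC and 18000, 11880 and 13220 FPKM with si-circCpsf6. Small subunit genes summed to 9950, 8830 and 9016 FPKM with si-NC and 11170, 7585 and 8585 FPKM with si-circCpsf6. Both subunits were thus highest in si-circCpsf6 replicate 1 and lowest in si-circCpsf6 replicate 2. The ratio of the large to the small sum was 1.58, 1.53 and 1.51 in si-NC and 1.61, 1.57 and 1.54 in si-circCpsf6. The means of 1.54 ± 0.037 and 1.57 ± 0.036 (SD, n = 3 each) differed by less than the spread between replicates. The difference depended on how the ratio was formed: with the median gene of each subunit in place of the sum the difference between groups was -0.06, and with the signal of sequence copies added it was 0.108.

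**Figure D1:**
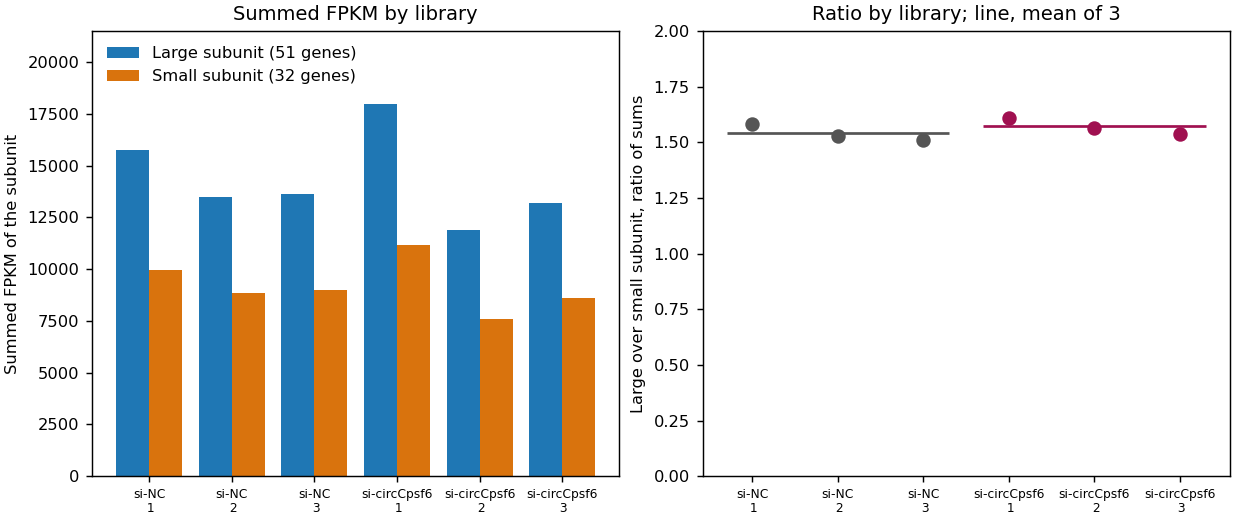
Left, summed FPKM of 51 large and 32 small subunit genes in each of the 6 libraries. Right, the ratio of the sums in each library with the mean of each group as a line; sums ranged from 11880 to 18000 FPKM (large) while the ratio stayed between 1.51 and 1.61.

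No ribosomal protein gene passed the test between the groups. Of the 83 genes, 81 had a mean of at least 1 FPKM and were tested within a limma fit of all 12974 such genes. None had an adjusted p under 0.05, in either direction, where 0.902% of all tested genes were called higher and 0.786% lower in si-circCpsf6. At an unadjusted p under 0.05, limma listed 4 of the 81 (4.94%), all lower. Over all tested genes it listed 20.3% in either direction, with 1310 of the 12974 genes lower. In the authors' deposited table no member had a q of at most 0.05, against 6.09% of tested genes, and 2 had a p of at most 0.05, against 17.7%. The smallest q of a member was 0.25. The values of the 2 groups did not overlap in 4 of the 81 genes (4.94%), all lower in si-circCpsf6. Over all tested genes this held for 14.0% as lower and for 26.9% in either direction. The median within-group SD of the 81 genes was 0.25 on the log2(FPKM + 1) scale, against 0.22 over all tested genes.

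The fold changes were small in both subunits. In si-circCpsf6 against si-NC, the median log2 fold change was -0.04 in 49 large subunit genes, with 19 above and 30 below 0, and -0.05 in 32 small subunit genes, with 10 above and 22 below 0. Over all tested genes the median was -0.02. In 57 of the 81 genes the estimate lay within 0.2 of 0 on the log2 scale. The 95% interval of limma's estimate lay within 1 log2 unit of 0, that is within a doubling or halving, in 75 genes. The 6 with a wider interval were Rpl3, Rpl17, Rpl22l1, Rpl29, Rpl30 and Rps6, and the median interval extended 0.47 to each side.

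**Figure D2:**
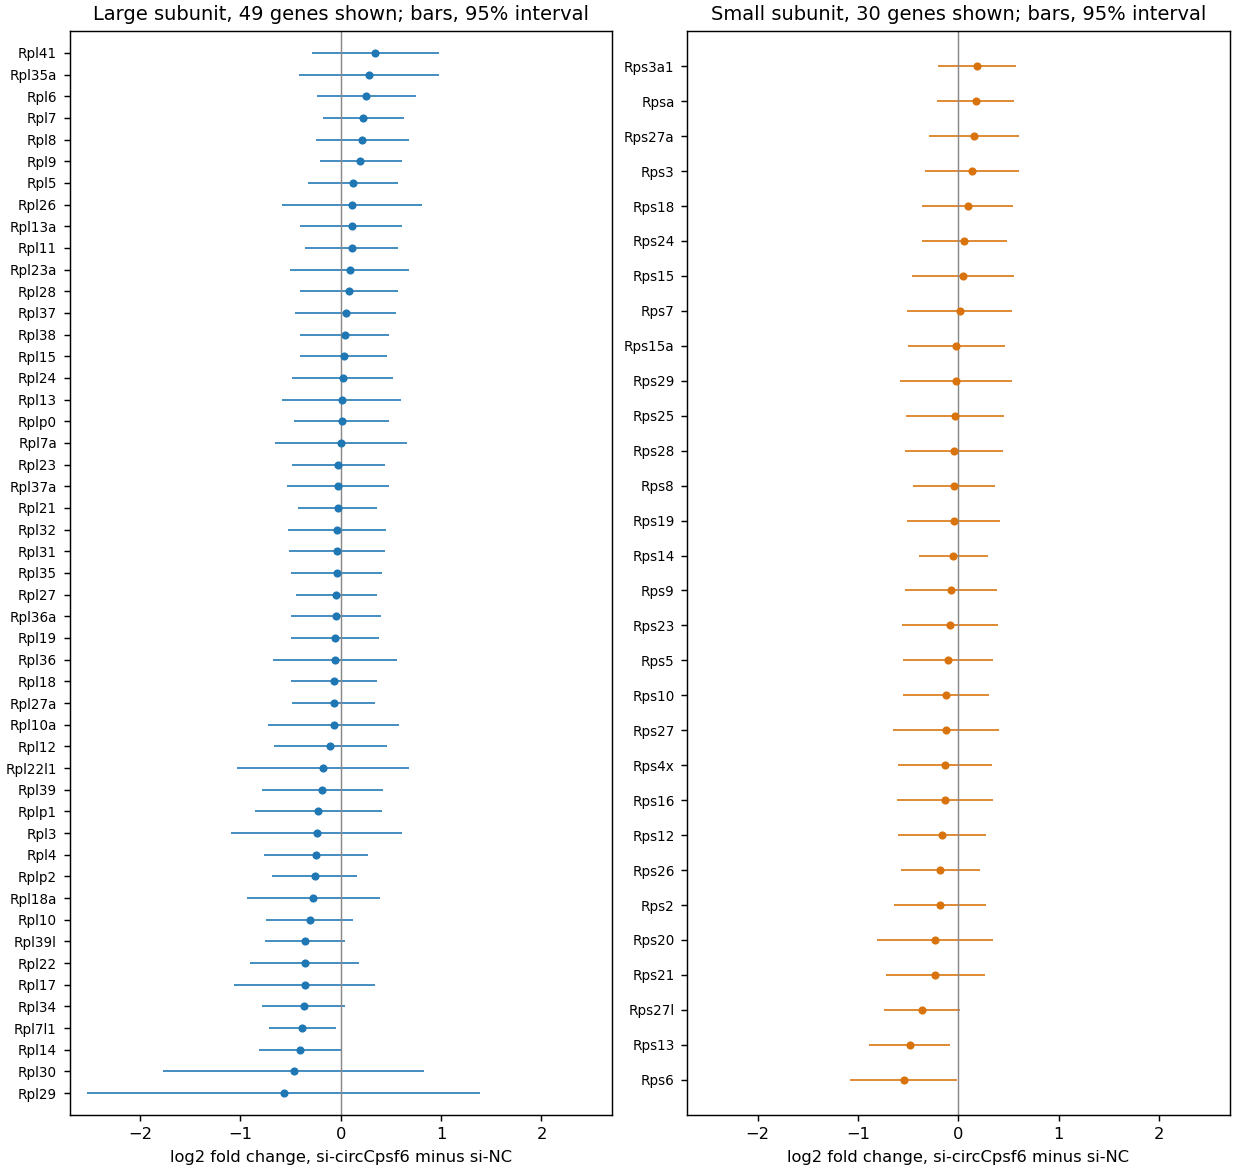
Log2 fold change of single tested genes, si-circCpsf6 minus si-NC on the log2(FPKM + 1) scale, for 49 large (left) and 30 of 32 small (right) subunit genes; bars are limma's 95% intervals without adjustment. Only the intervals of Rps6, Rps13, Rpl14 and Rpl7l1 lay below 0.

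Rps6 encodes the 40S protein phosphorylated by the S6 kinases downstream of mTOR. It had 494, 476 and 448 FPKM with si-NC and 446, 243 and 312 FPKM with si-circCpsf6. All si-NC values lay above the si-circCpsf6 values, narrowly for the nearest pair. The log2 fold change was -0.54 (standard error 0.23; limma adjusted p = 0.239), and copies of Rps6 held a further 111 FPKM on average.

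Rps13, a protein of the 40S body at a bridge between the subunits, had 94.5, 80.2 and 89.95 FPKM with si-NC and 78.8, 53.9 and 57.6 FPKM with si-circCpsf6. The groups did not overlap, and the log2 fold change was -0.49 (standard error 0.17; limma adjusted p = 0.176). Its 5 copies had 113, 117 and 117 FPKM with si-NC and 182, 87.4 and 150 FPKM with si-circCpsf6, so that the sum of gene and copies gave a log2 fold change of -0.05. The lower value was thus listed for Rps13 itself and not for the gene together with its copies.

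Rpl14, a 60S protein, had 224, 199 and 216 FPKM with si-NC and 194, 131 and 161 FPKM with si-circCpsf6. The groups did not overlap, with a log2 fold change of -0.41 (standard error 0.17; limma adjusted p = 0.244). Its single copy held 208 FPKM on average, and with it added the log2 fold change was again -0.41.

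In order of p-value, the next core genes below 0 were Rpl34, with 85.4, 76.2 and 71.6 FPKM with si-NC and 76.0, 51.02 and 55.3 FPKM with si-circCpsf6, and Rpl10. Rpl10 encodes a protein that joins the 60S subunit late, in the cytoplasm. It had 201, 197 and 187 FPKM with si-NC and 204, 133 and 143 FPKM with si-circCpsf6. In si-circCpsf6 replicate 1, Rpl34 lay within the si-NC range and Rpl10 just above it, while in the other two libraries both genes lay below it. The limma adjusted p was 0.294 for Rpl34 and 0.405 for Rpl10, and copies held 143 FPKM and 464 FPKM on average.

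Among the genes above 0 with the smallest p were Rpl7, Rpl41, Rpl6, Rps3a1, Rpl9, Rpl8 and Rpsa, with log2 fold changes of 0.17 to 0.35 and limma adjusted p of 0.511 to 0.607. In each of them the groups overlapped. Without si-circCpsf6 replicate 1 the log2 fold changes of these genes other than Rpl41 were 0.05 to 0.1. Rpl8, which lies close to the peptidyl transferase centre, had 1017, 874 and 912 FPKM with si-NC and 1319, 901 and 1064 FPKM with si-circCpsf6, and no copies were found for it. Rpsa, also known as the laminin receptor precursor, had 382 ± 19.7 and 433 ± 65 FPKM (SD, n = 3 each). Copies held 46.1 FPKM for Rpl7, 237 FPKM for Rpl6, 1139 FPKM for Rps3a1, 170 FPKM for Rpl9 and 211 FPKM for Rpsa.

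Rpl41 encodes a very short protein at the interface of the subunits, and no copies were found for it. It had 427, 368 and 374 FPKM with si-NC and 459, 749 and 351 FPKM with si-circCpsf6. The single high library was si-circCpsf6 replicate 2, in which most other ribosomal protein genes were at their lowest. Without that library the log2 fold change of 0.35 was 0.05.

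**Figure D3:**
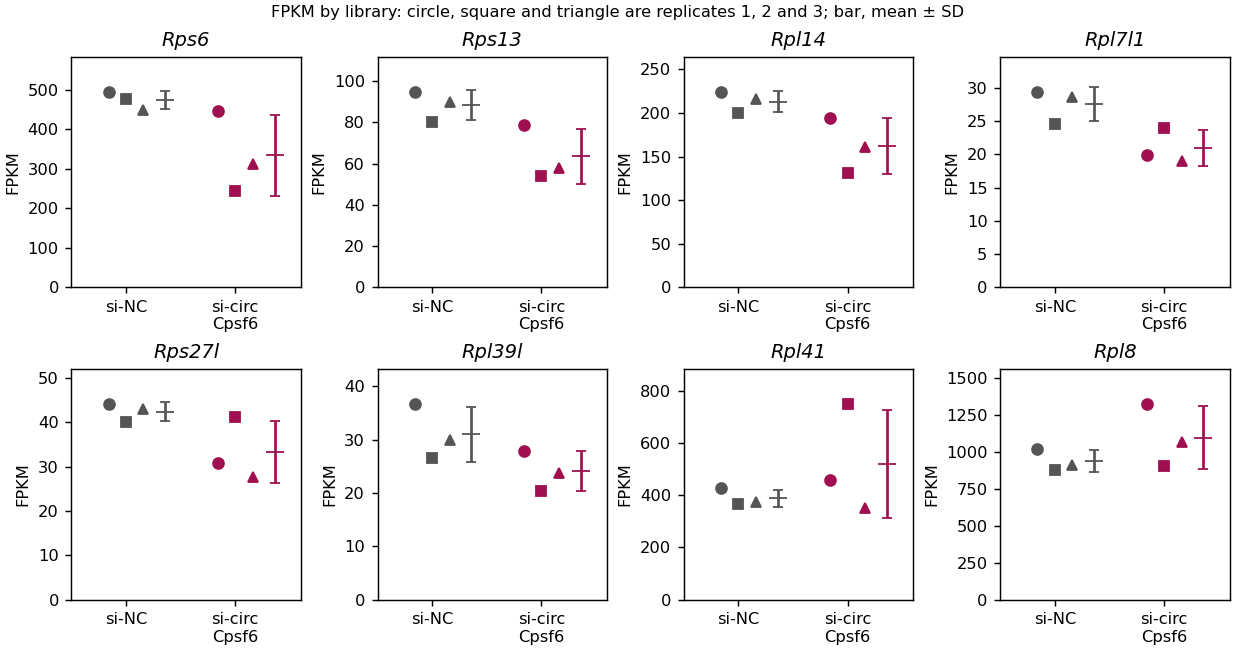
FPKM of 8 genes in each library, with replicates 1, 2 and 3 as circle, square and triangle and the mean ± SD beside them. In Rps6, Rps13, Rpl14 and Rpl7l1 the groups did not overlap, and Rpl41 was highest (749 FPKM) in si-circCpsf6 replicate 2, where Rps6 was lowest (243 FPKM).

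The main variation in these genes lay between the replicates of si-circCpsf6. Replicate 1 had the highest value of its group in 75 of 81 genes (92.6%), against 32% of all tested genes, and replicate 2 had the lowest in 68 genes (84.0%), against 29.9%. The full order of replicate 1 above 3 above 2 was found in 67 genes (82.7%), against 18.1% of all tested genes. It was found in 41 of 49 large (83.7%) and 26 of 32 small subunit genes (81.2%). The median ratio of replicate 1 to replicate 2 was 1.56-fold. Replicates of a group have no order in the design, so the pattern is a description of these libraries, and its source was not tested.

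In si-NC, replicate 1 had the highest value of its group in 63 genes (77.8%), against 36.4% of all tested genes, but the libraries were closer, with median ratios of 1.15 and 1.14 to replicates 2 and 3. The median deviation from each gene's mean over the 6 libraries, on the log2(FPKM + 1) scale, was 0.16, -0.05 and -0.02 in si-NC and 0.33, -0.28 and -0.12 in si-circCpsf6. Over all tested genes it stayed between -0.04 and 0.02. With this shared shift removed from each library, the median within-group SD of the 81 genes was 0.12 in place of 0.25, and the SD was smaller in 73 genes. The shift was taken from these same 81 genes, so a smaller SD in most of them was largely fixed in advance. The same shift removed from all tested genes gave a median within-group SD of 0.33 in place of 0.22.

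The comparison of the groups turned on these 2 libraries. Without si-circCpsf6 replicate 1 the median log2 fold change of the 81 genes was -0.21, with 70 genes below 0. In that limma fit 16 of them (19.8%) had an unadjusted p under 0.05, all lower. Over all tested genes the same fit gave 20.0% in either direction, and the share that was lower was not counted. Without si-circCpsf6 replicate 2 the median of the 81 genes was 0.08, with 54 genes above 0. None of the 81 genes had a limma adjusted p under 0.05 in either case, the smallest among them being 0.0734 (Rps13) without replicate 1.

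**Figure D4:**
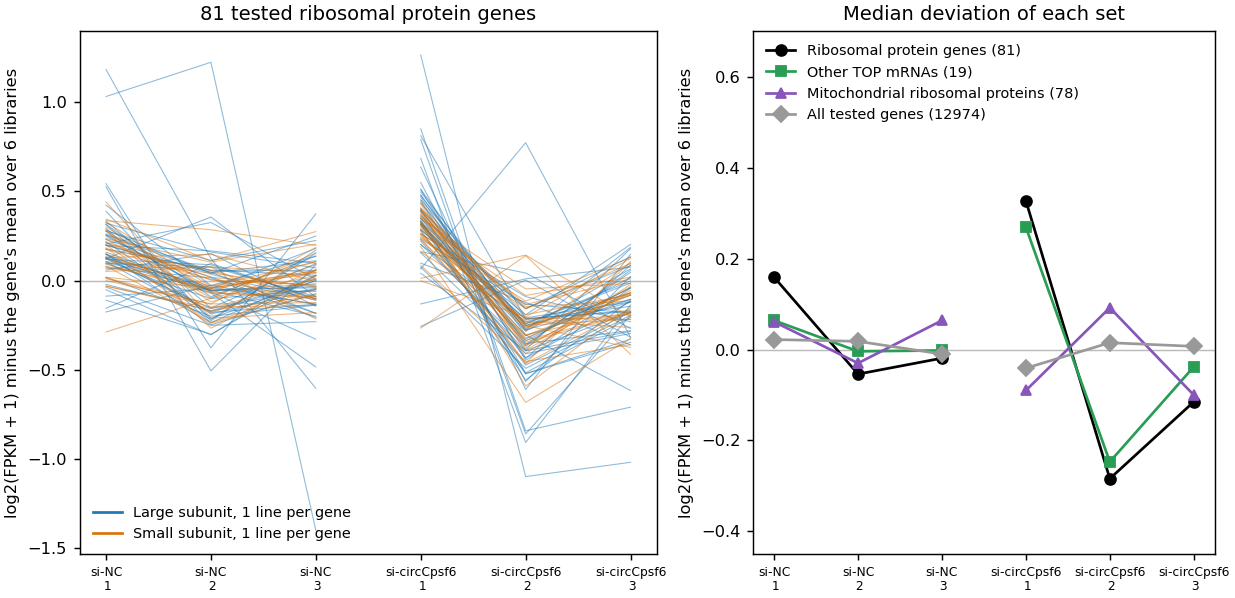
Left, log2(FPKM + 1) of each of 81 genes minus its own mean over 6 libraries, 1 line per gene, broken between the groups. Right, the median of that deviation for 4 gene sets; ribosomal protein genes and other TOP mRNAs had their highest point in si-circCpsf6 replicate 1 and their lowest in replicate 2, and mitochondrial ribosomal protein genes did not.

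In all, 6 genes were not highest in si-circCpsf6 replicate 1 within their group. Rpl41, Rps25, Rpl7l1 and Rps27l were highest in replicate 2, and Rpl21 and Rps14 in replicate 3. Rps25, a 40S head protein used by some viral internal ribosome entry sites, had 129, 142 and 111 FPKM with si-circCpsf6 and 174, 111 and 113 FPKM in si-NC. Rpl7l1 and Rps27l are among the paralogues described next.

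Most other mRNAs known to carry a TOP tract followed the same order in si-circCpsf6. The list held 19 genes for translation factors and related proteins, and all 19 had their highest si-circCpsf6 value in replicate 1, while 16 had their lowest in replicate 2. Their median deviations were 0.27, -0.25 and -0.04 in si-circCpsf6. In si-NC, replicate 1 was highest in 8 of the 19 (42.1%), near the 36.4% of all tested genes. None of the 19 had a limma adjusted p under 0.05 or an unadjusted p under 0.05, and the authors' deposited table gave none a q or p of at most 0.05. The nearest were Npm1, a nucleolar histone and ribosome chaperone (361 ± 22.3 and 290 ± 44.2 FPKM with si-NC and si-circCpsf6, SD, n = 3 each; limma adjusted p = 0.316), and Tpt1 (546 ± 62 and 645 ± 124 FPKM; limma adjusted p = 0.553).

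The genes of the mitochondrial ribosome did not share the order. Of 78 tested, 21 had their highest si-circCpsf6 value in replicate 1 and 44 in replicate 2, and the order of replicate 1 above 3 above 2 was found in 4 (5.13%). The sets differed in level, with a median of 12.85 FPKM in these 78 genes and 6.95 FPKM over all tested genes. The median was 231 FPKM in the cytosolic ribosomal protein genes and 140 FPKM in the other TOP mRNAs. Whether the order went with level was not tested. Of the 78 mitochondrial ribosomal protein genes, 1 was called, Mrps36, lower in si-circCpsf6, where 0.786% of all tested genes were called lower. At an unadjusted p under 0.05 limma listed 10.3% of the 78, against 20.3% of all tested genes. Mrps36 had 41.5, 36.8 and 36.02 FPKM with si-NC and 24.0, 23.0 and 22.8 FPKM with si-circCpsf6. The log2 fold change was -0.69 (standard error 0.12; limma adjusted p = 0.0412). Its product has since been assigned to the oxoglutarate dehydrogenase complex. The call was lost when any single library was left out, with limma adjusted p of 0.0573 to 0.175.

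Grouped by role within the ribosome, the genes showed small fold changes in each group. The stalk proteins, which recruit the translational GTPases, are Rplp0, Rplp1, Rplp2 and the anchoring Rpl12. Their genes summed to 2018, 1639 and 1745 FPKM with si-NC and 2170, 1337 and 1562 FPKM with si-circCpsf6. Rplp0, the scaffold, had 734 ± 48.8 and 749 ± 167 FPKM, and Rplp1 had 719 ± 150 and 627 ± 192 FPKM (SD, n = 3 each). Rplp2 had 165 ± 25.8 and 138 ± 21.9 FPKM, and Rpl12 had 183 ± 21.9 and 176 ± 60.5 FPKM (SD, n = 3 each). The smallest limma adjusted p among the 4 was 0.471, and copies held 213 FPKM for Rplp0 and 195 FPKM for Rpl12.

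Rpl5 and Rpl11 bind 5S ribosomal RNA, and outside the ribosome the same particle holds MDM2 and so stabilises p53. Rpl5 had 287, 259 and 293 FPKM with si-NC and 382, 242 and 305 FPKM with si-circCpsf6. Rpl11 had 229, 182 and 188 FPKM with si-NC and 274, 174 and 206 FPKM with si-circCpsf6. Both followed the library order, and their log2 fold changes of 0.12 and 0.11 were smaller than their standard errors of 0.19 and 0.20. Copies held 181 FPKM for Rpl5 and 112 FPKM for Rpl11.

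The 8 proteins at the rim of the peptide exit tunnel had log2 fold changes of -0.36 to 0.12 with a median of -0.05. The 14 proteins of the 40S head had log2 fold changes of -0.23 to 0.19 with a median of -0.04. Mutations in any of 9 listed genes cause Diamond-Blackfan anaemia, a failure of red cell formation, and these 9 had log2 fold changes of -0.18 to 0.29, 6 of them above 0. None of the genes of these 3 groups had an unadjusted p under 0.05 in limma, nor a p of at most 0.05 in the authors' deposited table.

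The diverged paralogues made up a small part of the total. Of 6 such members, 4 were tested, and none had a limma adjusted p under 0.05, 1 an unadjusted p under 0.05, and none a p of at most 0.05 in the authors' deposited table. Their log2 fold changes of -0.38 to -0.18 were all below 0, as were those of 6846 of all 12974 tested genes. Rpl7l1, a paralogue of Rpl7 that acts in assembly of the large subunit, had 29.4, 24.6 and 28.6 FPKM with si-NC and 19.9, 24.0 and 19 FPKM with si-circCpsf6. The groups did not overlap, though narrowly (log2 fold change -0.38, standard error 0.14; limma adjusted p = 0.189). Its copies held 0.23 FPKM on average.

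Rps27l, a paralogue of Rps27 and a p53 target, had 44.1, 40.2 and 43.1 FPKM with si-NC and 30.9, 41.2 and 27.8 FPKM with si-circCpsf6. Replicate 2 of si-circCpsf6 lay within the si-NC range and the other two below it (log2 fold change -0.36, standard error 0.17; limma adjusted p = 0.273). Rpl39l, best known from the testis, had 36.6, 26.5 and 29.9 FPKM with si-NC and 27.9, 20.4 and 23.8 FPKM with si-circCpsf6 (limma adjusted p = 0.297). Rpl22l1 had 7.60, 6.92 and 6.76 FPKM with si-NC and 12.2, 3.19 and 5.64 FPKM with si-circCpsf6, with 1.3 FPKM on average in copies, and its log2 fold change turned from -0.18 to 0.21 without si-circCpsf6 replicate 2.

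The tested paralogues can be set against their partners within a library, where the shared shift acts on the ratio only so far as the pair differ in it; these shares leave out sequence copies. Rps27l made up 13.2%, 12.2% and 13.2% of the pair with Rps27 in si-NC and 7.64%, 15.2% and 11.6% in si-circCpsf6. Rpl7l1 made up 10.4%, 8.06% and 9.91% of the pair with Rpl7 in si-NC and 5.11%, 8.56% and 5.71% in si-circCpsf6. For both genes the share was lowest in si-circCpsf6 replicate 1, where Rps27 and Rpl7 were highest, and the groups overlapped. Rpl39l made up 25.1% to 26.2% of its pair in si-NC and 19.7%, 26.1% and 24.9% in si-circCpsf6. Rpl22l1 made up 6.67%, 5.64% and 6.81% of the pair with Rpl22 in si-NC and 9.45%, 4.76% and 7.24% in si-circCpsf6, so that its share was highest in si-circCpsf6 replicate 1.

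The 2 members under the expression filter were both paralogues. Rpl3l, which replaces Rpl3 in heart and skeletal muscle, had 0.44 to 0.74 FPKM with si-NC and 1.28, 0.47 and 2.38 FPKM with si-circCpsf6. Rpl10l, which stands in for the X-linked Rpl10 in male germ cells, was listed at 0 in 5 libraries and at 0.06 FPKM in si-NC replicate 2.

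Levels of single genes spanned about 3 orders of magnitude, from 1.14 FPKM for Rpl21 to 1081 FPKM for Rps15, with a median of 231 FPKM, and 61 of 81 genes had at least 100 FPKM. The highest large subunit genes were Rpl8 (1015 FPKM), Rpl19 (969 FPKM, copies 101 FPKM), Rpl32 (828 FPKM) and Rplp0 (742 FPKM). Among the highest small subunit genes were Rps15, a head protein near the decoding site, Rps23 (754 FPKM, copies 184 FPKM), which lies in the decoding centre, and Rps4x (561 FPKM, copies 94.8 FPKM).

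Several of the lowest values belonged to genes with abundant copies, whereas the copies of the low paralogues Rpl22l1, Rpl7l1, Rpl39l and Rps27l summed to at most 1.3 FPKM on average. A search of annotated transcripts found 1037 other genes matching the coding sequence of 78 of the 83 members in the sense direction, at 90% identity or more over at least 50% of its length. In 31 members the copies summed to more FPKM than the gene. Rpl21, at 1.14 FPKM, had 79 copies with 2232 FPKM in all. Rpl29, Rpl35a and Rpl30 had 4.07, 9.58 and 19.1 FPKM against 792, 825 and 991 FPKM in copies. Among small subunit genes, Rps18 had 38.3 FPKM against 1179 FPKM in copies, Rps20 37.3 FPKM against 99.6 FPKM, and Rps28 59.5 FPKM against 127 FPKM. With copies added, the ratio of the upper to the lower quartile of levels was 2.92 in place of 4.03, and the median level was 490 FPKM.

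The copies were highest and lowest in the same libraries as the genes. They summed to 23890, 21450 and 20410 FPKM with si-NC and 28810, 17690 and 21690 FPKM with si-circCpsf6, with si-circCpsf6 replicate 1 highest and replicate 2 lowest. In si-NC, replicate 2 lay above replicate 3 in the copies and below it in the genes. Reads are divided between near-identical sequences, so the copies are not an independent measure. With copies added to each gene the median log2 fold change of the 81 genes was -0.03, and none of the 81 had a limma adjusted p under 0.05.

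**Figure D5:**
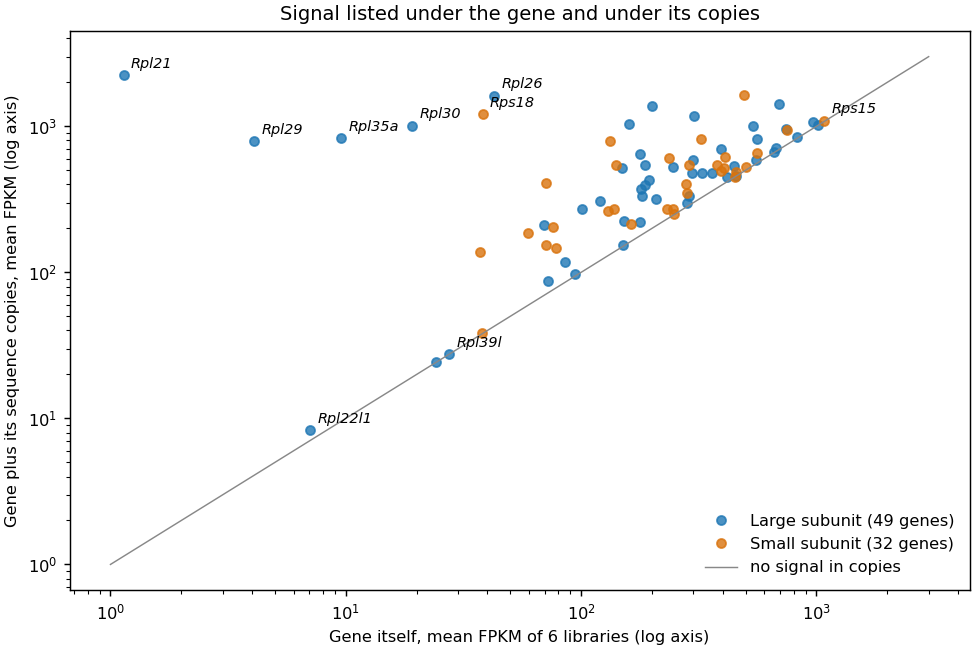
Mean FPKM over 6 libraries of each of 81 genes (x, log axis) against the gene plus its sequence copies (y, log axis); on the line the copies add nothing. Rpl21, Rpl29, Rpl35a, Rpl30, Rps18 and Rpl26 lie far above it, while the paralogues Rpl22l1 and Rpl39l lie on or near it.

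The value of Rpl29 varied widely between libraries of a group. It had 6.66, 7.75 and 0.42 FPKM with si-NC and 8.0, 0.75 and 0.85 FPKM with si-circCpsf6, while its copies stayed between 691 and 927 FPKM. Rps18 itself stayed between 31.8 and 50.3 FPKM, while its copies had 1675, 1430 and 452 FPKM with si-NC and 1982, 344 and 1190 FPKM with si-circCpsf6. Rps18-ps4, a gene annotated as a long noncoding RNA, was not counted among the copies and was named after its values were seen. It had 0, 0 and 541 FPKM with si-NC and 0.13, 453 and 186 FPKM with si-circCpsf6, and was high in the libraries where the copies were low.

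Fau, Rack1 and Rpl36al encode proteins of the cytosolic ribosome with symbols outside the rule, and none of the 3 had an unadjusted p under 0.05 in limma. Fau, which encodes a ribosomal protein fused to a ubiquitin-like protein, had 187 ± 24.4 against 203 ± 37.7 FPKM (si-NC against si-circCpsf6, SD, n = 3 each). Rack1, a signalling scaffold on the 40S head, had 311, 259 and 282 FPKM with si-NC and 294, 166 and 227 FPKM with si-circCpsf6 (limma adjusted p = 0.433). Rpl36al had 144 ± 11.8 and 136 ± 5.14 FPKM (SD, n = 3 each).

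Genes that act on ribosomal proteins or ribosomal RNA had median log2 fold changes of -0.11 (chaperones), -0.11 (regulators of the mRNAs) and -0.20 (ribosomal DNA transcription), beside -0.05 for the ribosomal protein genes. Among 9 dedicated chaperones and carriers, none had a limma adjusted p under 0.05 and none a q of at most 0.05 in the authors' deposited table. An unadjusted limma p under 0.05 was found in 2 (22.2%), both lower, against 20.3% of all tested genes in either direction. Heatr3, which serves import of Rpl5 and Rpl11, had 16.7, 15.4 and 17.9 FPKM with si-NC and 7.52, 12.4 and 13.7 FPKM with si-circCpsf6 (limma adjusted p = 0.189). Grwd1, a chaperone of Rpl3, had 18.0 ± 5.14 and 11.2 ± 2.37 FPKM (SD, n = 3 each; limma adjusted p = 0.209).

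Of 15 regulators of these mRNAs and their translation, none had a limma adjusted p under 0.05, and at an unadjusted p under 0.05 limma listed 1 higher and 3 lower (26.7%, against 20.3% of all tested genes). Log2 fold changes of the 15 ran from -0.83 to 0.87, with 6 above and 9 below 0. The authors' deposited table gave a q of at most 0.05 to 1 gene, Larp4, and to 6.09% of all tested genes. Larp4, a poly(A)-binding relative of Larp1 that stabilises mRNA, had 23.1, 22.8 and 25.2 FPKM with si-NC and 18.6, 9.76 and 11.7 FPKM with si-circCpsf6 (limma adjusted p = 0.0974, and 0.035 without si-circCpsf6 replicate 1). Myc, which drives transcription of ribosomal genes, had 55.5, 57.5 and 55.3 FPKM with si-NC and 28.7, 43.9 and 37.5 FPKM with si-circCpsf6 (limma adjusted p = 0.105). Myc was lowest in si-circCpsf6 replicate 1, the library in which ribosomal protein genes were highest. That library was the lowest of its group in 43.8% of all tested genes.

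In the 5S particle and p53 list of 5 genes, none had a limma adjusted p under 0.05 and 1, Trp53, had an unadjusted p under 0.05 (20.0%, against 20.3% of all tested genes). No gene of the list had a q of at most 0.05 in the authors' deposited table. Trp53, which encodes p53, had 34.4, 31.8 and 36.1 FPKM with si-NC and 21.4, 25.4 and 24.5 FPKM with si-circCpsf6, with no overlap (log2 fold change -0.50, limma adjusted p = 0.089). Ccng1, a p53 target, had 8.07 ± 0.35 and 6.76 ± 1.19 FPKM (SD, n = 3 each; limma adjusted p = 0.428).

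Among 8 genes for transcription of ribosomal DNA, none had a limma adjusted p under 0.05, and 3 (37.5%) had an unadjusted p under 0.05, all lower, against 20.3% of all tested genes in either direction. The authors' deposited table gave a q of at most 0.05 to 1 gene, Ubtf. Ubtf, which activates RNA polymerase I at ribosomal DNA, had 25.6, 28.8 and 29.0 FPKM with si-NC and 13.8, 22.1 and 15.3 FPKM with si-circCpsf6 (limma adjusted p = 0.0974). Polr1b, a core subunit of that polymerase, had 13.7, 14.0 and 16.04 FPKM with si-NC and 7.36, 11.5 and 11.4 FPKM with si-circCpsf6 (limma adjusted p = 0.176). In both genes all si-circCpsf6 values lay below all si-NC values, as in 14.0% of all tested genes.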

How the data were processed

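RNA from 6 Neuro2A libraries (3 si-NC, 3 si-circCpsf6) was sequenced, and the authors deposited 1 table with an FPKM value per gene and library. Columns beside these give a fold change as a ratio, its log2, a p-value and a q-value, all computed by the authors. No header or label says which program gave FPKM, which test gave the p-values or how strand was handled. A small RNA kit is named in the labels for these mRNA libraries. The submitters' processing notes list Bowtie 0.12.2, mm8 and mm9 without saying how each was used.

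The 12974 genes whose FPKM averaged 1 or more were fitted on the log2(FPKM + 1) scale with limma (3.58.1, under R 4.3.3), using a term for group and an intensity trend. Adjustment was by Benjamini-Hochberg over all of them, at 0.05. Fold changes on this scale understate changes of low genes. The fit was tested on simulated data. With 3 libraries a group, exact permutation p-values reach no lower than 0.1, so none were used. Whole reads could not be recovered, since no more than 34.2% of the low values came within 0.1 of a multiple of 1 read. Alternatives were other scalings, filters, pseudocounts and gene sets, the replicate number as a block, added copies and leaving out each library.

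GENCODE M21 (GRCm38) held 55144 of the table's gene identifiers and gave classes and transcripts. Sequence copies were found with BLAST 2.17.0, and exons of 38 members overlap another gene's exons. Promoter sequences are RefSeq's for GRCm38.p6. The members and all gene lists were chosen with earlier results of these data known. Named genes were the 8 smallest p in each direction, the 4 highest and 4 lowest of each subunit, the paralogues, the stalk and 5S genes, members under the filter, Cpsf6 and up to 4 genes of each other list. Rps25, Rpl30, Rpl26 and Rps18-ps4 were named after their values were seen. Some genes that this rule names are not reported here.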

Additional observations from a re-analysis of the deposited data

How the results depend on the processing

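No ribosomal protein gene was called under any setting tried, and the median log2 fold change of the 81 genes lay between -0.207 and 0.08, both reached by leaving out a si-circCpsf6 library (replicate 1 for the lower, 2 for the upper value). The large over small ratio, si-circCpsf6 minus si-NC, was 0.031, but -0.06 by the median gene, 0.075 with copies named for a gene added and 0.108 with all sequence copies added. Over all tested genes 117 were called higher and 102 lower. These counts were 4 and 9 with no filter on low values, 245 and 192 among protein-coding genes alone, 43 and 19 with libraries centred on the ribosomal protein genes, and 465 and 325 by the authors' q. Leaving out 1 library gave 1 to 43 higher and 2 to 44 lower. The addition of all sequence copies and the centring on ribosomal protein genes were chosen after seeing the data.

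Same-numbered libraries of the groups deviated together with correlations of 0.103, 0.129 and 0.084 across genes, so the numbers were not taken to pair samples, although every library correlated best with its own number. A fit with the replicate block called 6 genes higher and 5 lower, and no ribosomal protein gene. With 1 library left out in turn, the log2 fold change ran from -0.62 to 0.21 for Rpl22l1, -0.21 to 0.02 for Cpsf6 and -0.04 to 0.21 for Fau. Of 558 values of 31 single genes under the alternatives, 543 kept direction and call. Only Mrps36 of these genes was called in the main fit, so the others kept their call by staying uncalled. The count does not cover size: Rps13, at -0.49 and at -0.05 with copies added, is among the 543. Larp4 passed the test without si-circCpsf6 replicate 1, and Mrps36 lost its call in 11 of 18 settings. The unknown depth leaves the counting error of low genes such as Rpl21, Rpl29 and Rpl3l unknown.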
